A study of Mus musculus with 10 samples.

Results

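The 41 genes described here belong to the machinery of the cell cycle and of DNA replication. They were chosen by name, with earlier results of these data known. They comprise 14 genes of replication and nucleotide supply, 8 of mitosis, 8 cyclins, 4 cyclin-dependent kinases, 4 inhibitors of these kinases and 3 transcription factors. They were measured on arrays in cultured primary microglia, brain-resident macrophages that had been shaken off mixed glial cultures of newborn wild-type C57BL/6 mice after 14 days. The labels give 5 arrays of cells kept for 24 h in serum-free medium with 5 ng/ml recombinant human TGFb1 (transforming growth factor beta 1) and 5 control arrays of cells given no agent, also at 24 h. Of the 41 genes, 38 had a probe set row that names them alone, out of 18976 such genes in the deposited table, and 3 (Ccnb1, Ccne2 and Tyms) were found only on rows shared with another gene.

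The names of the 10 columns that hold single arrays occur in none of the sample labels. No value could therefore be tied to TGFb1-treated or control cells, and no comparison of the 2 groups is made. What follows describes the authors' median intensity, 1 value per row for the series, with no error and no n. The header names no group for this median. For a gene that differed between the groups, a median over both would lie between the levels of each.

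A dividing cell passes from a growth phase into DNA synthesis and then into mitosis. Cyclins switch on the cyclin-dependent kinases, which release E2F transcription factors from the retinoblastoma protein so that replication genes are transcribed, and Cdk inhibitors hold the kinases back. TGFb is known as a brake on the division of many cell types, in which it can induce Cdk inhibitors and lower Myc. Microglia renew themselves slowly in the healthy brain and divide more readily in culture or after injury.

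Many of these genes carry known control elements just before their start. E2F sites are typical of replication genes, and the cell cycle genes homology region (CHR) together with the CCAAT box bound by NF-Y is typical of genes of late cell cycle phases. In the promoter windows of RefSeq (build GRCm38.p6, from 250 bases before to 50 after each start, 300 bases), 34 of the 41 genes had a window. The windows were searched on both strands for TTTGGCGC, TTTCGCGC and TTTCCCGC (E2F), for CCAAT and for TTTGAA (CHR). TTTGGCGC and TTTCGCGC overlap where one strand carries the first and the other strand the second. The following stretches were chosen because they come from genes with the highest array levels among those with each motif. Relative to the start site, the first match in the window begins at base -110 in Mcm6 and at -87 in Pcna. In Cdk1 it begins at -131 (E2F) and -71 (CHR). The Mcm6 window held 3 E2F matches and the Cdk1 window 2 CHR matches, not all of them inside the stretch printed. Capitals mark every match to the motif named within the stretch.

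Mcm6, E2F, chr1:128359768-128359855, minus strand: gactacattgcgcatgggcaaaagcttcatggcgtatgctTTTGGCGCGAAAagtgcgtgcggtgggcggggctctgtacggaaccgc
Cdk1, E2F, chr10:69352996-69353083, minus strand: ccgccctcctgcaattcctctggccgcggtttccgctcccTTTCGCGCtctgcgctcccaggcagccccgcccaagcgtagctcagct
Cdk1, CHR, chr10:69352938-69353023, minus strand: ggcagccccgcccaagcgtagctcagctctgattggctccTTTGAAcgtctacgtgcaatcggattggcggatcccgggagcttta
Pcna, CCAAT, chr2:132253223-132253307, minus strand: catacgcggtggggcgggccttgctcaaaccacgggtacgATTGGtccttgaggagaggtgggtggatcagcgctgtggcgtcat

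In Mcm6 the capitals hold TTTGGCGC and, overlapping it, TTTCGCGC read on the other strand. In Pcna the capitals are a CCAAT box on the other strand. The E2F letters were found in 9 of the 34 genes, or 26.5%, against 2.12% of all 27025 genes with a window. All but 3 of these 9 belong to replication: Mcm3, Mcm5, Mcm6, Mcm7, Cdc6 and Uhrf1, 6 of the 13 replication genes with a window. The others were Cdk1, Cdk2 and E2f2. CCAAT was found in 24 of 34 genes, or 70.6%, against 41.1% of all genes. By role, it stood in 10 of the 13 replication genes and in 6 of the 7 mitosis genes with a window. TTTGAA was found in 11 of 34, or 32.4%, against 20.2% of all genes, and in 5 of the 7 mitosis genes with a window (Mki67, Top2a, Cdc20, Plk1 and Aurka) but in 2 of the 13 replication genes. A gene was counted if any of its windows held the motif. Of the 9 genes with E2F letters, Mcm7, Uhrf1 and E2f2 had 2 windows. Cdk1 and E2f2 were the only members with all 3 kinds of motif. Cdk1 had 1 window, whereas the motifs of E2f2 need not lie in the same window. A match is a description of the letters and not a site shown to be bound, and where a gene had no match only these letters were missing from this window.

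**Figure D1:**
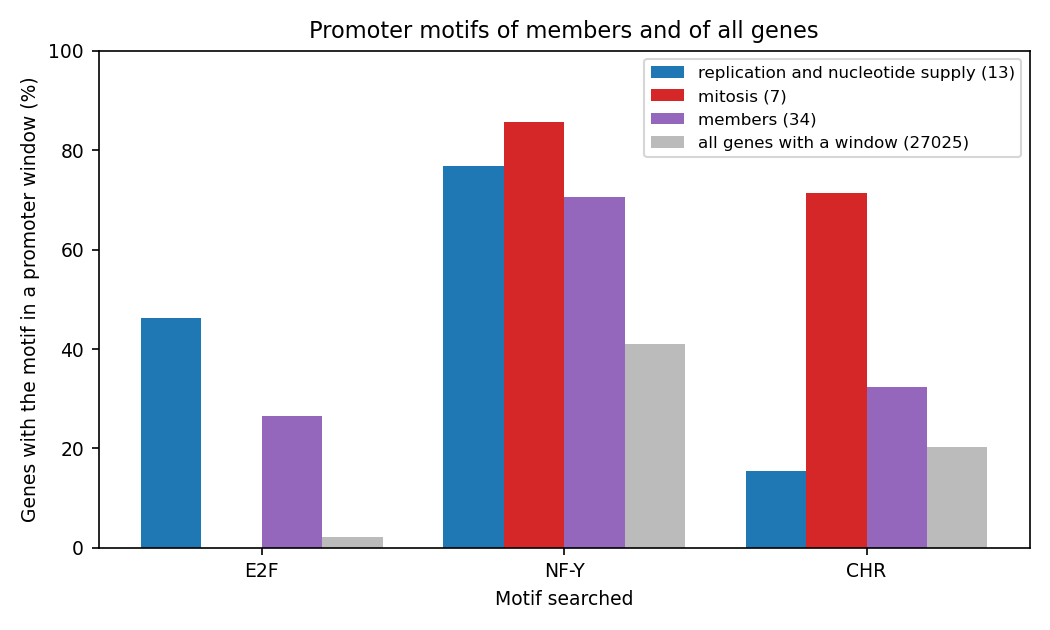
Bars give the percentage of genes with E2F, CCAAT (NF-Y) or CHR letters in a RefSeq promoter window, for replication members (13), mitosis members (7), all members (34) and all genes with a window (27025). E2F letters stood in 46.2% of the replication members and in no mitosis member, and CHR letters in 71.4% of the mitosis members and 15.4% of the replication members.

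To read an array level, a floor is needed, since a probe set gives some signal without its transcript. Olfactory receptor genes, which are known mainly from the nose, served for this. Of 365 such genes with a row of their own, 95% lay below an intensity of 11.7, while single ones reached 165.5. That level serves as the background here. The 38 members had a median intensity of 59.6, against 15.8 for all 18976 genes, and the median of their percentiles among all genes was 71.5. All 38 stood above the background, as did 56.1% of all genes, and 36 of 38 stood above the median gene. Of the 38, 5 exceeded the highest olfactory receptor gene at 165.5. In 9 the intensity was 100 or more, and in 29 it lay between 10 and 100. Among all genes, an intensity of 156.9 lay at percentile 86.6 and one of 99.97 at percentile 80.2. The share of all genes at such high levels was thus near that of the members. An intensity depends on the probes of a row as well as on its transcript, so an order of genes is an order of array signals and not of transcript numbers. A low signal of a bulk sample does not tell few dividing cells from little transcript in each.

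**Figure D2:**
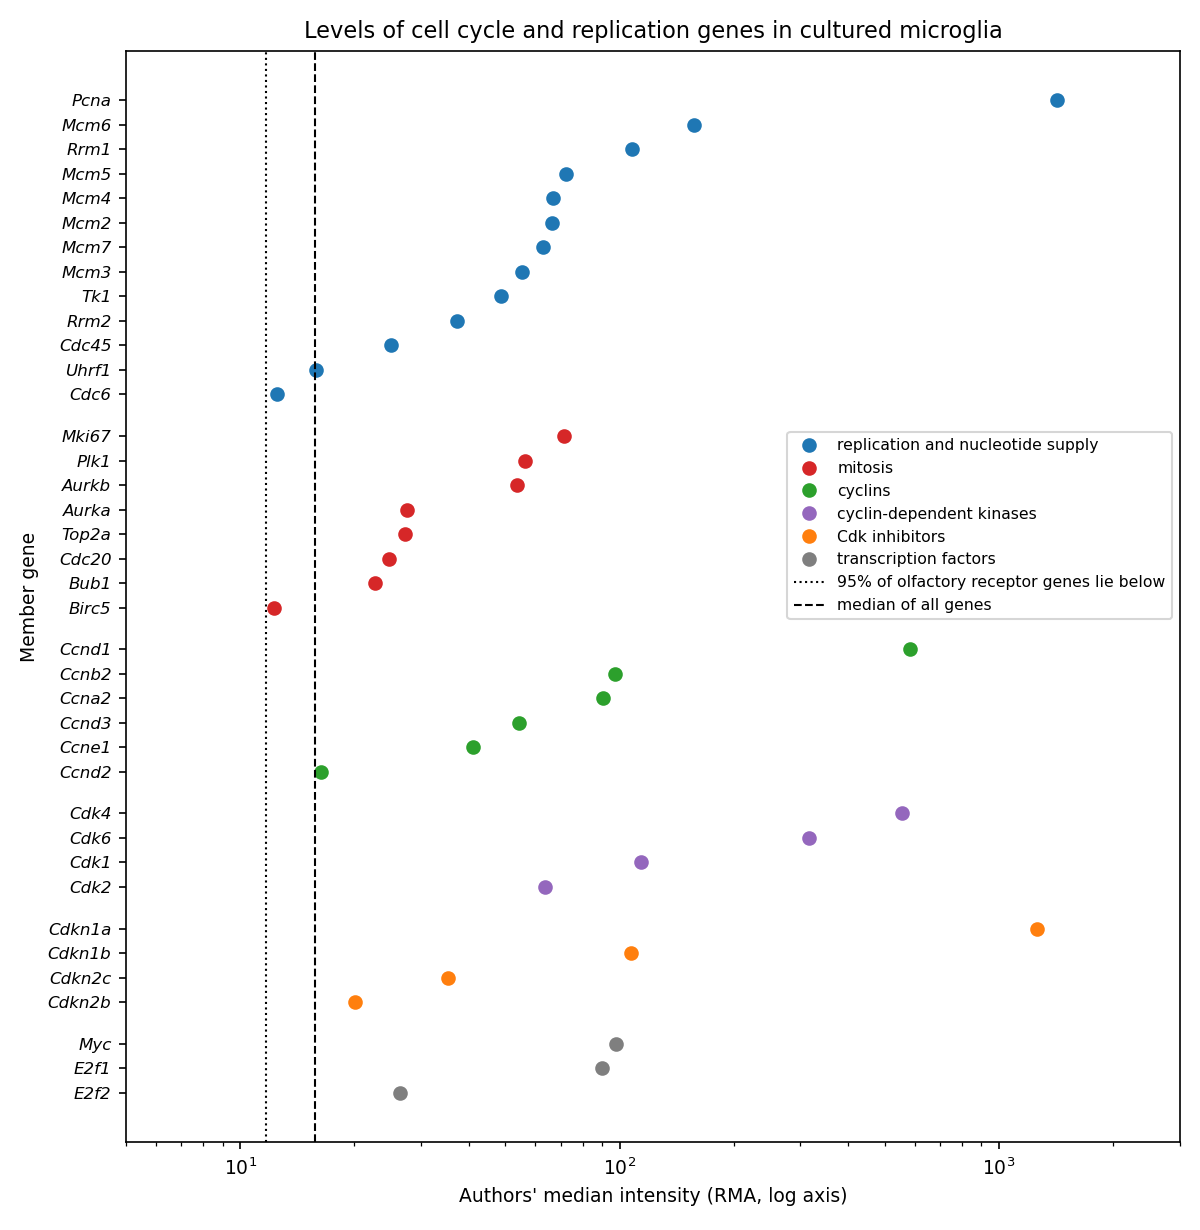
Each point is the authors' median intensity (log axis) of 1 member with a row of its own, grouped by role; the dotted line marks the background of 11.7 and the dashed line the median of all genes, 15.8. Pcna and Cdkn1a lie farthest to the right at 1422 and 1258, and Birc5 and Cdc6 lie next to the dotted line at 12.3 and 12.5.

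The replication genes spanned the widest range of levels. The 6 Mcm genes encode the subunits of the MCM helicase, which is loaded on origins and unwinds DNA, and the complex holds all 6 together. Mcm6 (probe set 10357436) had an intensity of 156.9, at percentile 86.6 of all genes. The other 5 lay close together. Mcm5 was at 72.35, Mcm4 at 66.7, Mcm2 at 66.3, Mcm7 at 62.8 and Mcm3 at 55.2, all between percentiles 70.2 and 74.8. Mcm7 also had a row shared with Ap4m1, at 72.1.

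Both members that help to load or start the helicase were lower than the Mcm genes. Cdc45, which joins the helicase at the start of synthesis, had an intensity of 25.01. Cdc6, which loads the MCM complex, was at 12.5, within 1.07 times the background and below the median gene. Other replication genes outside the members lay on both sides. Cdt1, which loads the MCM complex together with Cdc6, was at 99.97, above all Mcm genes but Mcm6, and Gins4 was at 239.5. Below all 6 Mcm members lay Dbf4 at 29.8, Orc6 at 28.4, Mcm10 at 24.2, Gins3 at 15.75, Gins1 at 12.7, Orc1 at 6.69 and Cdc7 at 3.83. Uhrf1, which keeps DNA methylation in step with replication, was at 15.9, at percentile 50.1. Pcna, the sliding clamp of the DNA polymerases, had the highest intensity of all 38 members at 1422 (probe set 10487930), at percentile 99.0. A second row of Pcna gave 1417, or 0.997 of the first, and both list the same 3 accessions. Besides replication Pcna is known for roles in DNA repair.

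Genes that supply nucleotides were in between. Rrm1, the large subunit of ribonucleotide reductase, was at 108.1, and Rrm2, its small subunit, was at 37.3. Rrm2 is the subunit known to be limited to dividing cells. Tk1, a thymidine kinase of dividing cells, was at 48.6 on the row used, while a second row of its own gave 14.3 and the row shared with Afmid gave 26.7. Tyms, thymidylate synthase, was measured only together with its pseudogene Tyms-ps, at 25.1.

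The 8 mitosis genes had the lowest median of the roles, 27.35, at a median percentile of 58.8. None of them reached percentile 75 of all genes. Mki67 (probe set 10568714), the antigen Ki-67 used as a marker of dividing cells, was the highest at 71.4, at percentile 74.5. Plk1, a kinase that drives entry into mitosis, was at 56.3. Aurkb, the Aurora kinase of the chromosomal passenger complex, was at 53.7, while Birc5 (survivin), another part of that complex, was at 12.3 and thus the lowest of the 38 members, 1.05 times the background. Aurka, the Aurora kinase of the spindle poles, was at 27.45, Cdc20, an activator of the anaphase-promoting complex, at 24.7, and Bub1, a kinase of the spindle checkpoint, at 22.6. The row used for Top2a, the topoisomerase that untangles chromosomes, gave 27.25. Its 2 other rows gave 3.37 and 2.59, under the background. The row at 3.37 lists the same 3 accessions as the row used, and the row at 2.59 lists none of them. The place of Top2a above the background thus depended on the row.

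The D cyclins spanned a wide range. They bind Cdk4 and Cdk6 and answer to growth factors. Ccnd1 (probe set 10569646) was at 584.3, at percentile 96.8, Ccnd3 was at 54.4, and Ccnd2 was at 16.3, near the median gene. The place of Ccnd2 among the cyclins depended on the row: the row that it shares with Gm7308 gave 156.2, 9.57 times its own row and above every cyclin but Ccnd1. The row that Ccnd1 shares with Oraov1 gave 29.9, or 0.0512 of its own row. Ccne1, a partner of Cdk2 at the start of DNA synthesis, was at 41.2, and Ccne2 was measured only together with Ints8, at 10.5, under the background. Ccna2, which acts in DNA synthesis and early mitosis, was at 90.2, and Ccnb2, a mitotic cyclin, was at 97.2. Ccnb1, the main mitotic cyclin, had 3 rows, all shared with Gm5593, at 60.1, 34.75 and 32.7.

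All 4 cyclin-dependent kinases lay above the median gene, and they had the highest median of the roles, 214.7. Cdk4 and Cdk6, the partners of the D cyclins, had intensities of 555.9 and 315.7, at percentiles 96.6 and 93.6. Cdk1, the kinase of mitosis, was at 113.6, and Cdk2, the kinase of DNA synthesis, was at 63.5. Cdk1 therefore stood above every one of the 8 mitosis genes, on the scale of array signals. Cdk4 also had a row shared with Tspan31, at 683.5, or 1.23 times its own.

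The 4 Cdk inhibitors ran over a wide range too. Cdkn1a (p21), which is known to be induced by p53 and in many cells by TGFb, was at 1258 (probe set 10443463), at percentile 98.8 and second only to Pcna among the 38 members. Its protein can bind that of Pcna. Cdkn1b (p27), typical of resting cells, was at 107.2, and its second row, which lists 3 of the same accessions, gave 10.3, or 0.0960 of the first. Cdkn2c (p18) was at 35.3. Cdkn2b (p15), an inhibitor of Cdk4 and Cdk6 that TGFb induces in epithelial cells, was at 20.1, or 1.72 times the background.

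The 3 transcription factors differed as well. Myc, a driver of growth that TGFb lowers in many epithelial cells, was at 97.8. E2f1 and E2f2, both activators of replication genes, were at 89.8 and 26.3. Of all members, 5 stood above percentile 90 of genes: Pcna, Cdkn1a, Ccnd1, Cdk4 and Cdk6. A further 8 stood between percentiles 75 and 90, namely Mcm6, Cdk1, Rrm1, Cdkn1b, Myc, Ccnb2, Ccna2 and E2f1. Apart from Pcna, the 5 strongest signals were thus those of a D cyclin, its kinases and a Cdk inhibitor. None of the 8 genes grouped under mitosis was among these 13, while Cdk1 and Ccnb2, which also act in mitosis but are grouped with the kinases and cyclins, were.

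**Figure D3:**
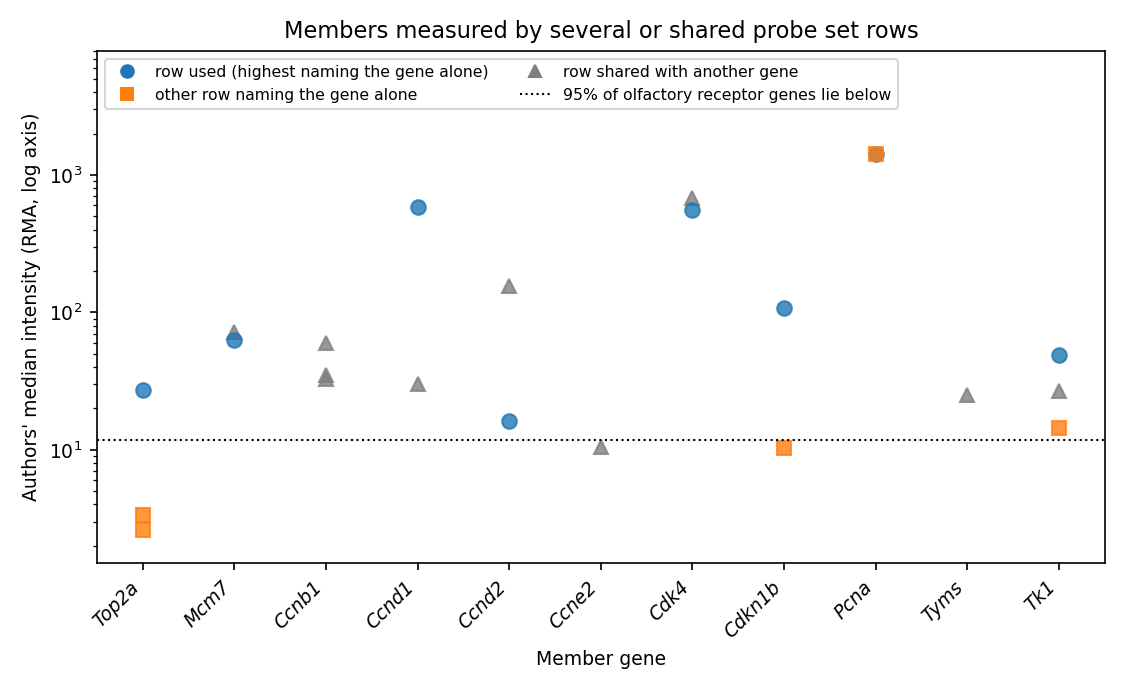
Points give the authors' median intensity (log axis) on every row of the 11 members that have several rows or a shared row; circles are the rows used, squares other rows of the gene alone, triangles rows shared with another gene, and the dotted line is the background of 11.7. The 2 rows of Pcna coincide at 1417 and 1422, whereas the rows of Cdkn1b lie at 107.2 and 10.3.

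Of the 41 genes, 34 had 1 row of their own, 4 (Top2a, Tk1, Cdkn1b and Pcna) had more, and 8 had a shared row. Only for Pcna did the other row of its own stay within 1.5 times of the row used. Shared rows of Mcm7 and Cdk4 did so too, and those of Ccnd1, Ccnd2 and Tk1 did not. Which transcript a shared row measures cannot be told apart here.

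Wider lists of the same machinery had lower medians than the 59.6 of the members, which mix all roles. By role, the medians were 62.8 for replication members and 27.35 for mitosis members, against 26.3 and 18.3 for the other genes listed. Members and lists were chosen with earlier results of these data known, and the part of that choice in these gaps was not tested. Of all genes, 56.1% stood above the background. Of 36 other replication genes 30 had a row of their own, with a median of 26.3, and 24 (80.0%) stood above the background. Among them Gins4, a subunit of the GINS complex of the helicase, was the highest at 239.5 and Cdc7, a kinase that starts replication, the lowest at 3.83. Of 33 other mitosis genes 29 had a row, with a median of 18.3, and 21 (72.4%) stood above the background. Mad2l1, of the spindle checkpoint, was highest at 108.0 and Ttk, a checkpoint kinase, lowest at 6.31. Of 28 other cell cycle regulators 27 had a row, with a median of 50.6, and 24 (88.9%) stood above the background. Ccng1, a p53 target, was the highest at 651.0 and Btg1 was next at 349.8. Rb1, the retinoblastoma protein, was at 190.3 and Mdm2, which degrades p53, at 197.7. Gadd45a was at 51.25 and Btg2 at 41.98, near the median of this list. Cdc25c, a phosphatase that activates Cdk1, was the lowest at 4.85.

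The gene annotation in the table assigns 28 of the 38 members to the cell cycle, 19 to cell division, 12 to DNA replication and 11 to mitosis. The other genes under these terms had medians of 40.6 (387 genes, cell cycle), 39.9 (213, cell division), 33.85 (83, DNA replication) and 37.35 (160, mitosis), all above the 15.8 of all genes. Here DNA replication, and not mitosis, had the lowest median.

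**Figure D4:**
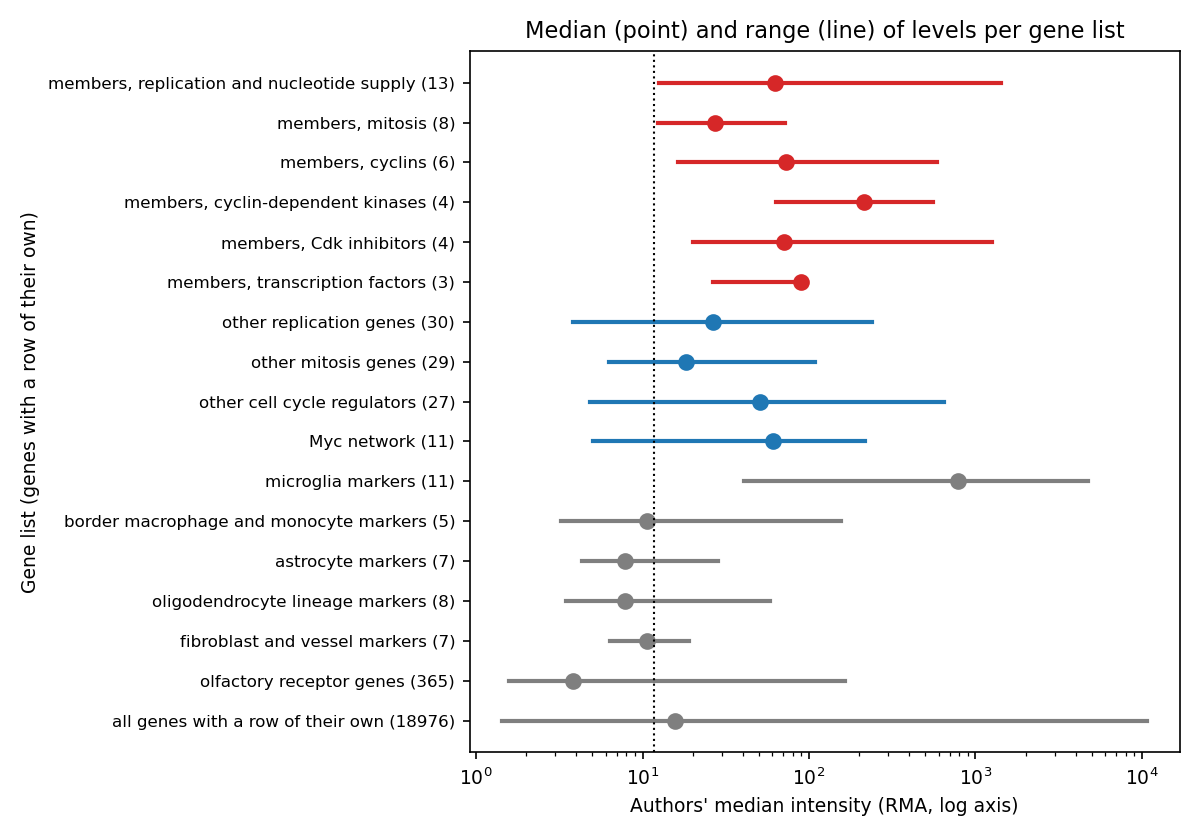
For each gene list the point is the median and the line the range of the authors' median intensities (log axis), with the number of genes measured alone in brackets; the dotted line is the background of 11.7. The 6 groups of members have medians of 27.35 to 214.7, the 11 microglia markers one of 787.7, and the markers of other cell types 7.85 to 10.6.

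All 11 markers of the labelled cell type stood above the background, as did 56.1% of all genes. Their median was 787.7, with a range from 40.4 (P2ry12) to 4757 (Cd68). Next lowest after P2ry12 were Aif1 at 72.2 and Tmem119 at 94.1. Other cells of a mixed glial culture can divide too, and some markers listed for other cell types gave a signal. Above the background were 2 of 7 astrocyte markers (Gfap at 12.1 and Aldh1l1 at 28.6), 3 of 8 of the oligodendrocyte lineage (Mbp at 56.7, Cspg4 at 58.0 and Sox10 at 15.6), 2 of 7 of fibroblasts and vessels (Col1a1 at 18.8 and Col3a1 at 18.9) and 2 of 5 of border macrophages and monocytes (Mrc1 at 155.7 and Pf4 at 96.5). The other markers of these lists that were measured alone lay under the background, among them Aqp4 at 4.67, Gja1 at 4.31, Olig2 at 3.49, Pdgfra at 6.64 and Pecam1 at 7.15. The part of other cells in the members' levels was not tested.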

How the data were processed

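Total RNA of the 10 samples was amplified with random primers and hybridised to Affymetrix whole transcript arrays, per the labels. RMA, a method that turns probe signals into 1 normalized value per probe set, is named in the notes of the submitters on processing. Its version and the genome build were not given in the sources used here, and the study's methods name an array model only for sorted microglia, not for these cultures. The deposited table has 28361 rows, of which 21041 name 1 gene symbol, 2247 name several, 5061 none and 12 a date. The authors' median expression was used, a linear intensity as deposited. Further columns hold the authors' own paired comparison (effect, p-value and FDR of a CyberT test) and were not used. A further 10 columns of values per array matched no sample label and were used in no step, so the planned paired limma fit could not be made and its rule for naming genes outside the members could not be applied. Those genes, the background and the printed stretches were chosen after values were seen.

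Per symbol the row with the highest median was kept, which gave 18976 genes. The array number limits the precision, and depth does not apply. In the lists, 2 genes were matched by an older symbol in the RefSeq gene table (GRCm38.p6). Motifs were matched in 40 RefSeq promoter windows of members. In 29 of these, the first 25 bases from the start site on lay in a GENCODE transcript of the gene as written. A search of the other strand used the last 25 bases of each window. Its 0 matches therefore cannot test the strand. Row choice and motif search were tested on simulated data. Python 3.11.15, numpy 2.4.6, pandas 2.3.3 and matplotlib 3.10.9 were used. The members and lists were chosen with earlier results of these data known. Alternatives were other rows per gene, shared rows, ranks among all rows and a higher background.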

Additional observations from a re-analysis of the deposited data

How the results depend on the processing

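No paired analysis was possible because the columns of values per array carry no replicate number or group that the labels give. For the same reason no alternative of the planned test (no pairing, another scaling, variance model or filter, or leaving out replicates) was run. The median level of the members was 55.7 with the lowest row of each gene and 60.1 with shared rows included, against 59.6. The percentile of that median was 74.4 among all rows, against 71.5 among genes. With the lowest row, 36 members stood above the background, with shared rows 40 of 41. With the background set at the highest olfactory receptor gene, chosen after seeing the data, 5 did, a share near that of all genes. A signal near 11.7 is thus a weak sign of expression. The levels of Top2a, Tk1, Cdkn1b, Ccnd1 and Ccnd2 moved by over 1.5 times with another row, and the cause was not tested.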

Other observations

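Genes around Myc were measured as well. Of 12 genes of the Myc network 11 had a row of their own, with a median intensity of 60.5 in the authors' table. Above the background of 11.7 stood 9 of them (81.8%), against 56.1% of all genes. Max, the partner of Myc on DNA, was at 205.5, and the Myc targets of the nucleolus Ncl and Nop56 were at 218.1 and 151.1. Of the Mxd proteins, which compete with Myc for Max, Mxd4 was at 105.2, Mxd1 at 54.8 and Mxd3 at 16.3. Other genes of this list lay near its median, with Odc1 at 55.5, Mxi1 at 60.45 and Mnt at 61.5. The related Mycn and Mycl1 were at 5.04 and 8.17, under the background, so that among the 3 Myc genes only Myc itself, at 97.8, stood above it.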
